A study of Mus musculus with 12 samples.

Results

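The genes described here are the targets and components of NF-kB signaling, together with chemokines and the adhesion molecules of inflammation, in mouse brainstem progenitors. The set is a list of 36 named genes out of the 54532 genes counted in each sample, and each was found by its Ensembl mouse gene identifier. It holds 13 chemokines, 2 adhesion molecules, 5 NF-kB subunits, 5 inhibitors (4 IkB family proteins and A20), 7 cytokines and other targets, and 4 receptors. RNAseq had been performed on 12 samples in 4 groups of 3. The groups were progenitors infected with *ACVR1* WT alone, with *ACVR1* R206H alone, with *ACVR1* WT and H3.1K27M, or with *ACVR1* R206H and H3.1K27M. *ACVR1* encodes a BMP type I receptor, R206H is an activating mutation of it, and H3.1K27M is a histone H3 mutation found with *ACVR1* mutations in diffuse intrinsic pontine glioma. All groups shared the same host: C57BL/6 mice of genotype Nestin TVA; p53 floxed, taken at postnatal day 3 to 5, whose brainstem cells were grown in serum-free medium with EGF and FGF2. The nestin promoter drives the viral receptor, so only nestin-expressing cells can take up the RCAS vectors. The labels list no Cre vector, no uninfected sample and no sample infected with H3.1K27M alone, so each H3.1K27M result below is set against *ACVR1* vector alone. The comparisons ask what H3.1K27M does in the presence of each *ACVR1* form, what R206H does with and without H3.1K27M, and whether the R206H response depends on H3.1K27M.

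NF-kB is a family of dimeric transcription factors that IkB proteins hold in the cytoplasm of resting cells. Signals from receptors for TNF, CD40 ligand or bacterial products activate the IKK complex, which marks the IkB protein for destruction and frees the dimer to enter the nucleus. Its targets include chemokines that call in neutrophils, monocytes and T cells, adhesion molecules that leukocytes grip, and its own inhibitors, which close a feedback loop. In brain, astrocytes and microglia are the best known sources of these genes, and astrocytes respond to injury and inflammation by making *Cxcl10*, *Ccl2*, *Icam1* and *Vcam1*.

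Promoter sequences from RefSeq (GRCm38.p6) are shown for 4 members, because these carry the letters of the NF-kB consensus and the genes differed between groups below. Each is the 250 bases before the start that RefSeq gives the gene, 5′ to 3′ on the strand of the gene, and capitals mark the motif matches. *Cxcl10* is at chr5:92348890-92349139 (minus strand), *Cxcl1* at chr5:90890995-90891244 (plus strand), *Csf1* at chr3:107760470-107760719 (minus strand) and *Nfkbia* at chr12:55492648-55492897 (minus strand).
Cxcl10: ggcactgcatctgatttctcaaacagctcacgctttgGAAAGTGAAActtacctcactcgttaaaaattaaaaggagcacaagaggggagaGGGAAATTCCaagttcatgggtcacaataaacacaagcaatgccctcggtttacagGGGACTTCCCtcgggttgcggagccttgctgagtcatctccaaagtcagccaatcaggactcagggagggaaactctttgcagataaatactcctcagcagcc
Cxcl1: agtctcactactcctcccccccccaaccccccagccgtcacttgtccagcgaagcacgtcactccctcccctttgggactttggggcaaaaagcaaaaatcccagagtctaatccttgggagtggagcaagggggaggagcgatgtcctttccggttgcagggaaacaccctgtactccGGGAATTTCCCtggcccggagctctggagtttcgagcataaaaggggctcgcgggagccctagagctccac
Csf1: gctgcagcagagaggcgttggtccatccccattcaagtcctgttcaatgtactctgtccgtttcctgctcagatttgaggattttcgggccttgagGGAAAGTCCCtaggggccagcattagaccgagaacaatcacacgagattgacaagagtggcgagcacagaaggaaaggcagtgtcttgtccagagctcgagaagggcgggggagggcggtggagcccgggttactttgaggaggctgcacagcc
Nfkbia: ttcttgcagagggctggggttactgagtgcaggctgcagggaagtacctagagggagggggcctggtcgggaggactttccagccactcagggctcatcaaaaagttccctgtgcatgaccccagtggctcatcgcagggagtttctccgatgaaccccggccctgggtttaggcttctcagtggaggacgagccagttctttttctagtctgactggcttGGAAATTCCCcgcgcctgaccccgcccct

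Motifs were searched on both strands in these windows, and matches could overlap, since the NF-kB consensus of 10 bases can read nearly the same on either strand. The promoter table held 26 of the 36 members, and 11 of those 26 had at least 1 NF-kB consensus match, beside 4.46% of 27025 genes in the table. They were *Cxcl1*, *Cxcl2*, *Cxcl10*, *Ccl20*, *Nfkb2*, *Rel*, *Nfkbia*, *Nfkbie*, *Tnfaip3*, *Csf1* and *Tlr2*. The *Cxcl10* window held 2 of them (GGGAAATTCC and GGGACTTCCC) and also GAAAGTGAAA, a match to GAAA, any 2 bases and GAAA again, letters read by interferon regulatory factors. That motif was in 3 of the 26 members (*Cxcl10*, *Cxcl14* and *Tnfrsf1b*) and in 3.46% of genes. A match in these letters is no evidence that a factor bound there. *Ccl2*, *Cd40*, *Ccl7*, *Ccl5*, *Cxcl5*, *Nfkbiz*, *Cxcl16*, *Relb*, *Nfkb1* and *Vcam1* were not in the table. On chromosome 5 of mm10 the CXC chemokines lie in a pair of clusters. *Cxcl5* (chr5:90759360-90761624), *Cxcl1* (chr5:90891241-90893115, where GENCODE starts the gene within the last 4 bases of the RefSeq window) and *Cxcl2* (chr5:90903871-90905938) are in the first, and *Cxcl9* (chr5:92321347-92328079) and *Cxcl10* (chr5:92346638-92348889) are in the second.

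Each sample had between 19315020 and 26456257 reads counted on genes. Levels are given as CPM, the count scaled to library size, with TMM factors over the 12 samples. Replicate 1 of the *ACVR1* WT group stood apart from its group: its log2 CPM correlated with the other samples of the group at 0.973 and 0.955, against 0.990 between those samples. Those samples also agreed less with each other than pairs within the other groups, which correlated at 0.994 to 0.996. The typical variation between replicates (biological coefficient of variation) was 0.275 in the *ACVR1* WT group and between 0.0453 and 0.0594 in the other groups. Counts of called members and of pathway lists that use the *ACVR1* WT group are therefore also given without its replicate 1 below. *Acvr1*, the gene on the vectors, was counted at 46.1 to 53.1 CPM with *ACVR1* WT, 82.3 to 114 CPM with *ACVR1* R206H, 163 to 368 CPM with *ACVR1* WT and H3.1K27M, and 548 to 1056 CPM with *ACVR1* R206H and H3.1K27M. The R206H base change cannot be read from gene counts, and the vectors carry human *ACVR1*, of which only reads that align to the mouse gene are counted. Progenitor and astrocyte genes were high in all samples (*Fabp7*, *Vim*, *Sox2*, *Slc1a3*), whereas the 8 endothelial markers summed to 4.98 to 15.5 CPM, most of it from *Flt1* (2.41 to 13.6 CPM) and *Kdr* (0.86 to 3.62 CPM), with *Cldn5*, *Tie1* and *Emcn* at 0.129 CPM or less. *Kdr* rose (log2 fold change 1.28, SE 0.26, edgeR adjusted p = 1.2e-03) and *Flt1* fell (-1.44, SE 0.18, adjusted p = 2.7e-05) with H3.1K27M in the presence of *ACVR1* R206H, and *Kdr* was higher with R206H in the presence of H3.1K27M (1.16, SE 0.27, adjusted p = 8.1e-03). Microglia genes were low and uneven, and are given beside the results that they touch.

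Per kilobase of exon, the mean level over the 12 samples was highest for *Tnfrsf1a*, the main TNF receptor, at 64.7 CPM per kb. *Cx3cl1*, the membrane-bound chemokine that neurons and astrocytes present to microglia, was next at 42.0 CPM per kb. *Nfkbia* (29.1 CPM per kb), *Rela* (23.1 CPM per kb), *Vcam1* (22.6 CPM per kb) and *Csf1* (17.4 CPM per kb) followed. At the other end were *Tnf* (0.0191 CPM per kb) and *Cxcl9* (0.0196 CPM per kb). The progenitors thus had RNA for the TNF receptor, the main activating subunit and its inhibitor, with next to none for TNF itself. *Tnf* had 4, 2, 0 and 2 counts in all over the 3 samples of the *ACVR1* WT, *ACVR1* R206H, *ACVR1* WT and H3.1K27M, and *ACVR1* R206H and H3.1K27M groups.

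**Figure D1:**
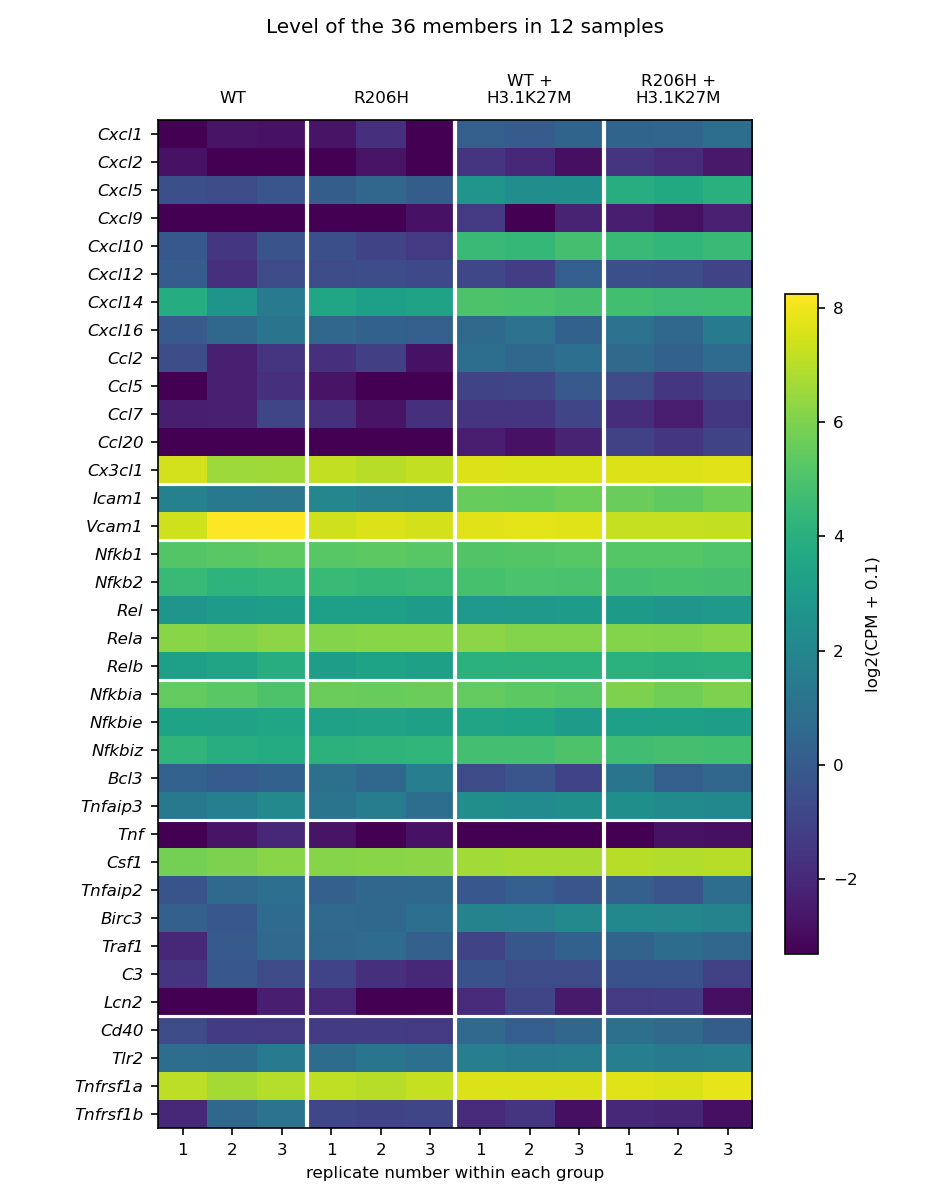
Level of each of the 36 members (rows, ordered by role: chemokines, adhesion, NF-kB subunits, inhibitors, cytokines and other targets, receptors) in each of the 12 samples (columns, 3 per group), as log2(CPM + 0.1). *Cxcl1*, *Cxcl5*, *Cxcl10*, *Icam1* and *Ccl20* are darker in the 6 samples without H3.1K27M than in the 6 with it, whereas *Nfkb1*, *Rel*, *Rela* and *Nfkbie* keep nearly the same shade throughout.

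The presence of H3.1K27M went with higher levels of many of these genes, led by the chemokines *Cxcl10*, *Cxcl1* and *Cxcl5* and by the adhesion gene *Icam1*. In the presence of *ACVR1* WT, 12 members rose and none fell among the 29 tested (edgeR quasi-likelihood test, adjusted p under 0.05 over all genes), beside 12.6% of 15385 genes higher, 10.4% lower and 23% either way. In the presence of *ACVR1* R206H, 18 members rose and 1 fell among the 27 tested, beside 29.1% of 15482 genes higher, 27.4% lower and 56.5% either way. These comparisons share no samples, and the 12 members that rose with *ACVR1* WT (100% of them) also rose with *ACVR1* R206H, where they were 66.7% of the 18. Over all genes, 1855 of the 1939 higher with *ACVR1* WT (95.7%) were among the 4510 higher with *ACVR1* R206H, of which they were 41.1%. The median log2 fold change of the tested members was 0.53 with *ACVR1* WT and 0.61 with *ACVR1* R206H, while that of all genes was -0.02 and 0.00. Some members reached the count minimum in the H3.1K27M group and not in the other: *Ccl2*, *Cd40* and *Cxcl1* in both comparisons and *Cxcl10* with *ACVR1* R206H. For *Tnfrsf1b* it was the *ACVR1* WT group without H3.1K27M. Among members whose mean normalized count reached 10 in both groups, 9 of 25 rose with *ACVR1* WT, beside 11.8% of such genes, and 14 of 23 rose with *ACVR1* R206H, beside 28.3%, with 8 members in both. These 8 were 88.9% of the 9, while 1661 of the 1725 such genes higher with *ACVR1* WT (96.3%) were in both. Markers of pericytes and fibroblasts moved the same way: 3 of 5 tested of a list of 9 rose with *ACVR1* WT and 4 of 5 with *ACVR1* R206H, and none fell. Their summed level was 10.7 to 13.1 CPM with *ACVR1* WT, 16.2 to 19.6 CPM with H3.1K27M added, 13.4 to 16.2 CPM with *ACVR1* R206H and 26.2 to 32.4 CPM with both mutations, and their part in the results was not tested. Of the other lists, neural progenitor markers had 4 of 9 lower with *ACVR1* WT, and 1 higher and 5 lower with *ACVR1* R206H. Astrocyte markers had 1 of 6 lower with *ACVR1* WT, and 2 higher and 3 lower with *ACVR1* R206H. Oligodendrocyte lineage markers had 1 of 6 higher, and 4 higher and 1 lower, and neuron markers 1 of 5 higher and 1 lower, and 3 higher and 1 lower, and the part of these was not tested either. Without *ACVR1* WT replicate 1, the *ACVR1* WT counts were 2 higher and 6 lower for neural progenitors, 1 and 3 for astrocytes, 2 and 2 for the oligodendrocyte lineage, 1 and 2 for neurons, and 3 and 0 for pericytes and fibroblasts. Of 2 endothelial markers tested in that fit, 0 were higher and 1 was lower. Beside these counts stand 26.9% of all genes higher and 25.6% lower in the same fit. The samples are bulk cultures, in which fewer cells of a type and less RNA per cell cannot be told apart.

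**Figure D2:**
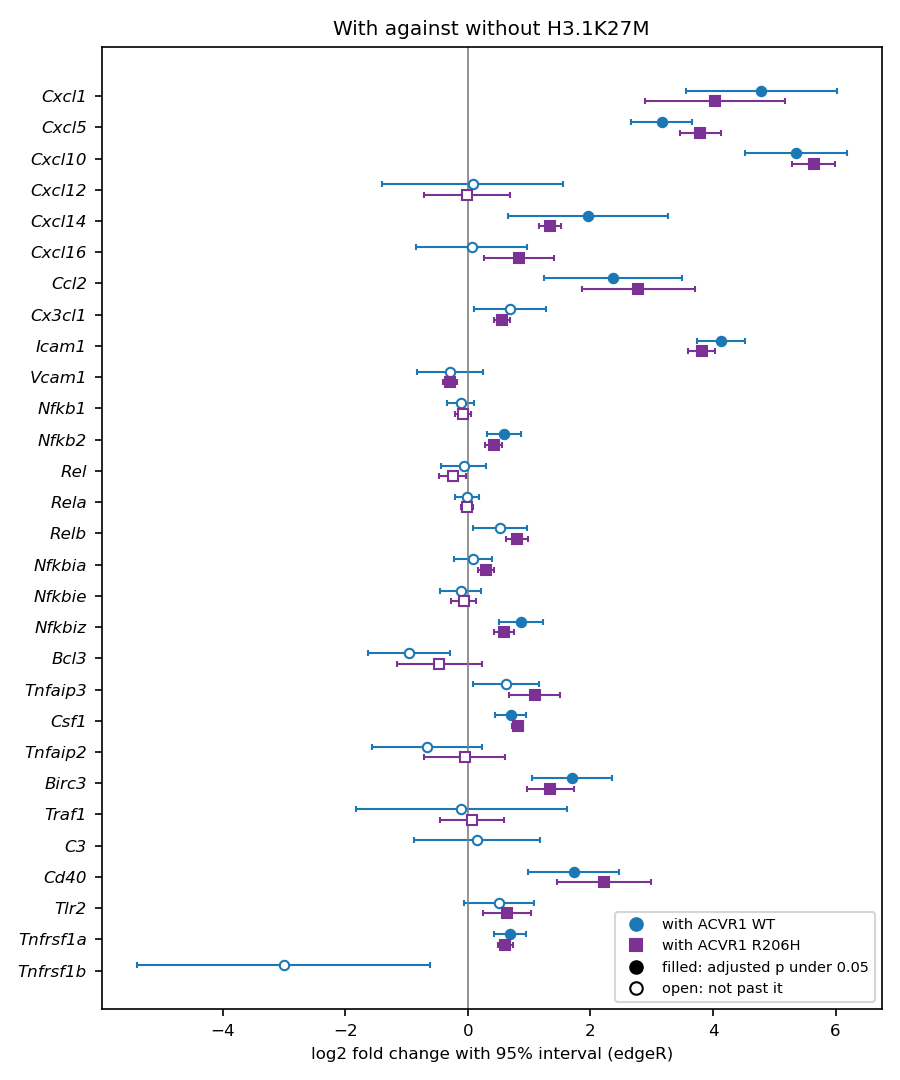
Log2 fold change (x axis) of each tested member with against without H3.1K27M, with its 95% interval, in the presence of *ACVR1* WT (circles) and *ACVR1* R206H (squares); filled symbols have an adjusted p under 0.05. *Cxcl10*, *Cxcl1*, *Icam1* and *Cxcl5* lie above 3 in both, and *Nfkb1*, *Rela* and *Nfkbie* lie near 0.

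*Cxcl10* (ENSMUSG00000034855), whose product draws activated T cells, was at 0.80, 0.26 and 0.68 CPM in the 3 *ACVR1* WT samples and at 23.1, 20.8 and 28.9 CPM in the 3 *ACVR1* WT and H3.1K27M samples. With *ACVR1* R206H it was at 0.60, 0.42 and 0.29 CPM alone and at 22.4, 19.9 and 22.6 CPM with H3.1K27M. No sample without H3.1K27M came near any sample with it. The log2 fold change was 5.35 (SE 0.35, edgeR adjusted p = 9.4e-04) with *ACVR1* WT and 5.65 (SE 0.16, adjusted p = 4.0e-10) with *ACVR1* R206H. *Cxcl9*, its neighbor on chromosome 5 and a ligand of the same receptor, was close to absent: its 3 samples per group summed to 0, 1, 10 and 6 counts in the order of the groups above, and it was not tested.

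*Cxcl5* (ENSMUSG00000029371) and *Cxcl1* (ENSMUSG00000029380) encode chemokines for neutrophils. *Cxcl5* was at 0.612, 0.516 and 0.728 CPM with *ACVR1* WT and at 6.47, 5.01 and 5.40 CPM once H3.1K27M was present. With *ACVR1* R206H it was at 0.956, 1.30 and 0.972 CPM, and with H3.1K27M at 14.9, 12.8 and 16.1 CPM, the highest of the 4 groups with no overlap. Its log2 fold change with H3.1K27M was 3.16 (SE 0.21, edgeR adjusted p = 9.6e-04) with *ACVR1* WT and 3.79 (SE 0.15, adjusted p = 3.8e-09) with *ACVR1* R206H. *Cxcl1* had 2 counts in all over the 3 *ACVR1* WT samples and 75 over the 3 *ACVR1* WT and H3.1K27M samples, a depth-scaled ratio of 32.8 with a counting interval of 8.77 to 276. In the *ACVR1* R206H groups it went from 0.0503, 0.208 and 0 CPM to 1.24, 1.29 and 1.72 CPM, a log2 fold change of 4.03 (SE 0.52, edgeR adjusted p = 4.1e-05). *Cxcl2*, a close relative in the same cluster, stayed under the count minimum, with 1, 1, 10 and 11 counts summed in the 4 groups.

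Other chemokines rose by less. *Cxcl14*, made by epithelia and glia and a ligand of uncertain receptor, was at 14.3, 6.24 and 2.57 CPM in the *ACVR1* WT samples, an uneven group, and at 32, 30.6 and 28.4 CPM with H3.1K27M added. The *ACVR1* R206H samples had 11.5, 9.25 and 10.1 CPM and those with both mutations 26.5, 24.7 and 25.4 CPM. Both H3.1K27M groups lay above every other sample, with log2 fold changes of 1.96 (SE 0.54, edgeR adjusted p = 0.046) with *ACVR1* WT and 1.34 (SE 0.08, adjusted p = 7.8e-08) with *ACVR1* R206H. *Ccl2*, which recruits monocytes, was at 0.565, 0.103 and 0.243 CPM with *ACVR1* WT and at 1.74, 1.39 and 1.76 CPM with H3.1K27M. Where *ACVR1* R206H was present it went from 0.201, 0.364 and 0.0486 CPM to 1.52, 1.12 and 1.53 CPM. The *Ccl2* groups did not overlap, and its log2 fold changes were 2.37 (SE 0.47, edgeR adjusted p = 0.017) and 2.78 (SE 0.42, adjusted p = 1.4e-04).

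*Cx3cl1*, the most abundant chemokine here, was at 174, 93.5 and 95.6 CPM with *ACVR1* WT and at 199.8, 195 and 196 CPM with H3.1K27M, a log2 fold change of 0.69 (SE 0.24, edgeR adjusted p = 0.086) that did not pass the test. All samples with H3.1K27M were higher, the *ACVR1* WT sample at 174 CPM was replicate 1, and without it *Cx3cl1* rose by 1.05 on the log2 scale (SE 0.05, adjusted p = 3.7e-06). In the presence of *ACVR1* R206H it rose from 147, 127 and 147 CPM to 198, 197 and 212 CPM, by 0.56 on the log2 scale (SE 0.06, adjusted p = 6.3e-06). *Cxcl16*, a membrane-bound ligand and scavenger receptor, rose with *ACVR1* R206H by 0.83 on the log2 scale (SE 0.26, adjusted p = 0.016). Its values there were 1.31, 1.09 and 1.02 CPM without H3.1K27M and 1.95, 1.42 and 2.58 CPM with it. With *ACVR1* WT the *Cxcl16* samples overlapped (0.847 to 2.09 CPM against 1.12 to 1.91 CPM).

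*Cxcl12*, the homeostatic chemokine that guides neural precursors, did not follow the inflammatory ones. It lay between 0.206 and 1.00 CPM in all 12 samples, and its log2 fold change with H3.1K27M was 0.08 (95% interval -1.39 to 1.56) with *ACVR1* WT and -0.01 (-0.71 to 0.69) with *ACVR1* R206H. *Ccl5*, *Ccl7* and *Ccl20* were mostly too low for the test. *Ccl5*, a T cell and monocyte chemokine, had 6, 1, 40 and 28 counts summed in the *ACVR1* WT, *ACVR1* R206H, *ACVR1* WT and H3.1K27M, and *ACVR1* R206H and H3.1K27M groups, and the ratio of 28 to 1 counts was 23.5 with a counting interval of 3.89 to 961. *Ccl20*, a chemokine for dendritic cells and Th17 cells, had no count in any of the 6 samples without H3.1K27M. It had 6 counts in the 3 *ACVR1* WT and H3.1K27M samples and 25 in the 3 *ACVR1* R206H and H3.1K27M samples, in the latter at least 6.99-fold higher than the limit of 3 counts over the group that a count of 0 allows. *Ccl7* had 13, 9, 22 and 13 counts in the same order of groups.

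The adhesion genes went separate ways. *Icam1* (ENSMUSG00000037405), the ligand of leukocyte integrins, was at 3.34, 2.48 and 2.33 CPM with *ACVR1* WT and at 47.5, 45.4 and 52.0 CPM with H3.1K27M. In the *ACVR1* R206H groups it was at 4.02, 3.22 and 3.11 CPM, and at 48.7, 43.1 and 51.1 CPM with H3.1K27M. The H3.1K27M groups lay far above the others and overlapped each other, with log2 fold changes of 4.14 (SE 0.16, edgeR adjusted p = 2.0e-04) with *ACVR1* WT and 3.81 (SE 0.10, adjusted p = 2.9e-10) with *ACVR1* R206H. *Vcam1* (ENSMUSG00000027962), also a receptor for leukocyte integrins and a surface protein of neural stem cells, was at 169, 301 and 305 CPM with *ACVR1* WT and at 213, 221 and 205 CPM with H3.1K27M, where the samples overlapped. Where *ACVR1* R206H was present it was at 169.8, 199 and 183 CPM alone and at 149, 149.6 and 144 CPM with H3.1K27M. It was the member that fell there, by 0.29 on the log2 scale (SE 0.05, edgeR adjusted p = 7.3e-04).

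**Figure D3:**
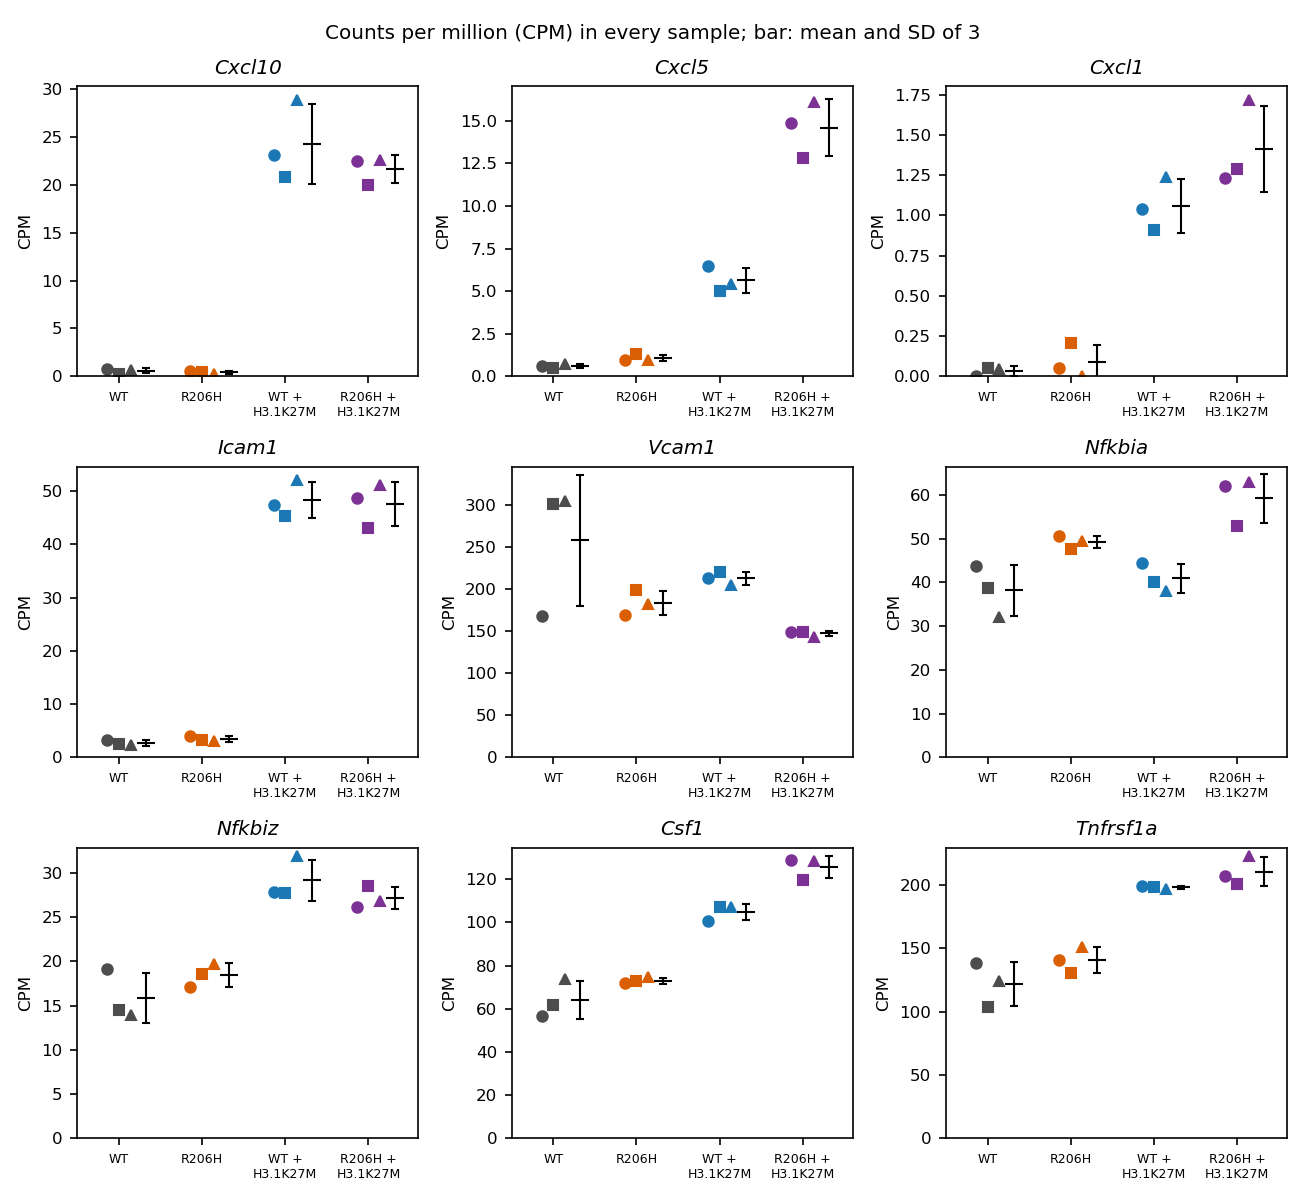
CPM (y axis, linear and starting at 0) of 9 members in every sample, by group, with the mean and SD of the 3 samples as a bar beside the points (circle, square and triangle are replicates 1, 2 and 3, which were not taken as pairs across groups). *Cxcl10*, *Cxcl5*, *Cxcl1* and *Icam1* separate the samples with H3.1K27M from those without, *Cxcl5* and *Nfkbia* are higher with R206H among the H3.1K27M samples, and *Vcam1* is spread widely in the *ACVR1* WT group.

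Among the NF-kB subunits, *Nfkb2* rose in both comparisons and *Relb* in the one with *ACVR1* R206H and, with *ACVR1* WT, once replicate 1 was left out, both of them genes of the noncanonical pathway, and the other subunits did not pass the test. *Nfkb2*, which encodes the precursor that the noncanonical pathway processes, was at 23.0, 17.9 and 19.3 CPM with *ACVR1* WT and at 29.2, 31.6 and 30.6 CPM with H3.1K27M, a log2 fold change of 0.59 (SE 0.12, edgeR adjusted p = 0.016). In the presence of *ACVR1* R206H it went from 22.5, 21.1 and 22.0 CPM to 28.0, 29.7 and 28.4 CPM, by 0.42 on the log2 scale (SE 0.06, adjusted p = 1.2e-04). Its partner *Relb* rose with *ACVR1* R206H, from 8.95, 10.3 and 9.38 CPM to 16.9, 15.5 and 16.4 CPM, by 0.80 on the log2 scale (SE 0.08, adjusted p = 6.3e-06). With *ACVR1* WT, *Relb* was at 9.27, 10.7 and 14.9 CPM alone and at 16.9, 17.2 and 16.7 CPM with H3.1K27M, without overlap but with an adjusted p of 0.082 (edgeR; log2 fold change 0.53, SE 0.18). Without *ACVR1* WT replicate 1 it rose there too, by 0.39 on the log2 scale (SE 0.14, adjusted p = 0.045).

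The subunits of the canonical pathway stayed within narrow bounds. *Rela*, the main activating subunit, was between 65.6 and 75.9 CPM in all 12 samples, and its log2 fold change with H3.1K27M was -0.01 (95% interval -0.20 to 0.18) with *ACVR1* WT and -0.01 (-0.11 to 0.09) with *ACVR1* R206H. *Nfkb1*, its usual partner, was between 33.8 and 41.7 CPM, with log2 fold changes of -0.12 (-0.33 to 0.10) and -0.08 (-0.20 to 0.05). *Rel*, the subunit known from lymphocytes, was between 6.68 and 9.10 CPM, with log2 fold changes of -0.06 (-0.43 to 0.30) and -0.24 (-0.46 to -0.02), the latter with an adjusted p of 0.056.

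Of the inhibitors, *Nfkbiz* and *Tnfaip3* stood out. *Nfkbiz* encodes a nuclear IkB protein that helps NF-kB activate a subset of its targets. It was at 19.1, 14.5 and 13.9 CPM with *ACVR1* WT and at 27.9, 27.7 and 31.9 CPM with H3.1K27M, a log2 fold change of 0.87 (SE 0.15, edgeR adjusted p = 0.011). In the *ACVR1* R206H groups it rose from 17.1, 18.6 and 19.7 CPM to 26.1, 28.6 and 26.8 CPM, by 0.59 on the log2 scale (SE 0.07, adjusted p = 3.1e-05). *Tnfaip3*, which encodes the ubiquitin-editing brake A20, rose with *ACVR1* R206H from 2.11, 2.81 and 1.70 CPM to 5.28, 4.5 and 4.11 CPM, by 1.10 on the log2 scale (SE 0.19, adjusted p = 4.0e-04). With *ACVR1* WT it was at 2.49, 3.1 and 4.27 CPM alone and at 5.23, 4.68 and 5.40 CPM with H3.1K27M, a log2 fold change of 0.62 (SE 0.22, adjusted p = 0.087) that did not pass.

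*Nfkbia*, which encodes the inhibitor IkB alpha and is a rapid NF-kB target, showed little H3.1K27M difference beside its R206H one. With *ACVR1* WT its log2 fold change was 0.09 (95% interval -0.22 to 0.40), and with *ACVR1* R206H it rose by 0.30 (SE 0.06, edgeR adjusted p = 1.6e-03). *Nfkbie*, another cytoplasmic inhibitor, was between 8.32 and 11.1 CPM in all samples, with log2 fold changes of -0.12 (-0.45 to 0.22) and -0.07 (-0.27 to 0.13). *Bcl3*, a nuclear IkB protein that works with the NF-kB subunits lacking an activation domain, had lower means with H3.1K27M in both comparisons. It was at 1.13, 0.929 and 1.12 CPM with *ACVR1* WT and at 0.539, 0.716 and 0.400 CPM with H3.1K27M, where the groups did not overlap but the adjusted p was 0.053 (log2 fold change -0.96, SE 0.28). With *ACVR1* R206H the log2 fold change was -0.46 (SE 0.32, adjusted p = 0.24).

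Among cytokines and other targets, *Csf1* and *Birc3* rose in both comparisons. *Csf1*, the growth factor of microglia and macrophages, was at 56.8, 61.9 and 73.7 CPM with *ACVR1* WT and at 100.5, 107 and 107 CPM with H3.1K27M, a log2 fold change of 0.70 (SE 0.11, edgeR adjusted p = 7.4e-03). Where *ACVR1* R206H was present it went from 71.8, 72.6 and 74.6 CPM to 129, 119.8 and 128 CPM, by 0.81 on the log2 scale (SE 0.04, adjusted p = 2.1e-08). *Birc3*, an inhibitor of apoptosis and ubiquitin ligase in TNF receptor signaling, was at 1.08, 0.774 and 1.55 CPM with *ACVR1* WT and at 3.53, 3.39 and 4.28 CPM with H3.1K27M. In the presence of *ACVR1* R206H it was at 1.46, 1.40 and 1.80 CPM and at 4.18, 3.95 and 3.55 CPM. The *Birc3* groups did not overlap, with log2 fold changes of 1.70 (SE 0.27, adjusted p = 9.1e-03) and 1.34 (SE 0.18, adjusted p = 4.4e-05).

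The remaining targets did not pass the test with H3.1K27M or were too low for it. *Tnfaip2*, a target of TNF in endothelium and myeloid cells, had log2 fold changes of -0.66 (95% interval -1.56 to 0.24) and -0.05 (-0.72 to 0.61). *Traf1*, an adaptor of TNF receptors, had -0.11 (-1.83 to 1.62) and 0.07 (-0.45 to 0.59), and was at 0.141 CPM in *ACVR1* WT replicate 1 against 0.877 and 1.46 CPM in the rest of that group. *C3*, the central complement component, was tested with *ACVR1* WT (0.15, -0.88 to 1.18) and had 15 and 39 counts in the 3 *ACVR1* R206H samples without and with H3.1K27M. *Lcn2*, an acute-phase protein of reactive astrocytes, had 2, 3, 15 and 14 counts in the 4 groups.

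Of the receptors, *Tnfrsf1a* was at 138, 103 and 124 CPM with *ACVR1* WT and at 199, 198 and 197 CPM with H3.1K27M, a log2 fold change of 0.69 (SE 0.11, edgeR adjusted p = 9.1e-03). In the *ACVR1* R206H groups it rose from 141, 131 and 151 CPM to 207, 201 and 223 CPM, by 0.61 (SE 0.06, adjusted p = 2.2e-06). *Cd40*, the receptor through which T cells activate antigen-presenting cells, was at 0.518, 0.310 and 0.291 CPM with *ACVR1* WT and at 1.45, 1.00 and 1.32 CPM with H3.1K27M. Its log2 fold changes were 1.73 (SE 0.31, adjusted p = 0.013) and, with *ACVR1* R206H (0.302, 0.312 and 0.292 CPM to 1.81, 1.5 and 0.971 CPM), 2.23 (SE 0.35, adjusted p = 1.9e-04). *Tlr2*, a sensor of bacterial lipoproteins, rose with *ACVR1* R206H, from 1.61, 2.18 and 1.75 CPM to 2.95, 2.66 and 2.88 CPM (log2 fold change 0.64, SE 0.18, adjusted p = 9.2e-03). With *ACVR1* WT it was at 1.69, 1.6 and 2.67 CPM alone and at 3.03, 2.72 and 2.84 CPM with H3.1K27M, without overlap, and did not pass (0.51, SE 0.24, edgeR adjusted p = 0.16).

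*Tnfrsf1b*, the TNF receptor of immune and endothelial cells, went the other way. It was at 0.141, 1.39 and 2.04 CPM with *ACVR1* WT, at 0.453, 0.416 and 0.437 CPM with *ACVR1* R206H, and at 0.239 CPM or less in the 6 samples with H3.1K27M. Its log2 fold change with *ACVR1* WT was -3.00 (SE 0.99, edgeR adjusted p = 0.074). Microglia genes had the same pattern. *C1qb* was at 1.08, 7.84 and 10.9 CPM with *ACVR1* WT, 2.41, 3.17 and 4.47 CPM with *ACVR1* R206H, and at 0.166 CPM or less in all samples with H3.1K27M. Of the 14 microglia and macrophage markers, 9 of 11 tested fell with H3.1K27M in the presence of *ACVR1* WT, and 7 of 8 tested fell and 1 rose in the presence of *ACVR1* R206H, beside 10.4% and 27.4% of genes lower. Their summed level was 12.8 to 63.2 CPM with *ACVR1* WT, 20.6 to 23.6 CPM with *ACVR1* R206H, 4.78 to 7.12 CPM with *ACVR1* WT and H3.1K27M, and 5.23 to 7.25 CPM with both mutations. In the samples with H3.1K27M, *Cd68* (2.79 to 4.8 CPM) and *P2ry12* (0.907 to 2.5 CPM) made up most of that sum, and each of the other 12 markers, *C1qa*, *Csf1r*, *Trem2*, *Tyrobp* and *Tmem119* among them, was at 0.374 CPM or less. *P2ry12* was the marker that rose (log2 fold change 1.01, SE 0.25, edgeR adjusted p = 5.0e-03, in the presence of *ACVR1* R206H). Without *ACVR1* WT replicate 1, 10 of 11 tested markers fell in the presence of *ACVR1* WT, beside 25.6% of genes. The part of microglia in the members' changes was not tested.

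**Figure D4:**
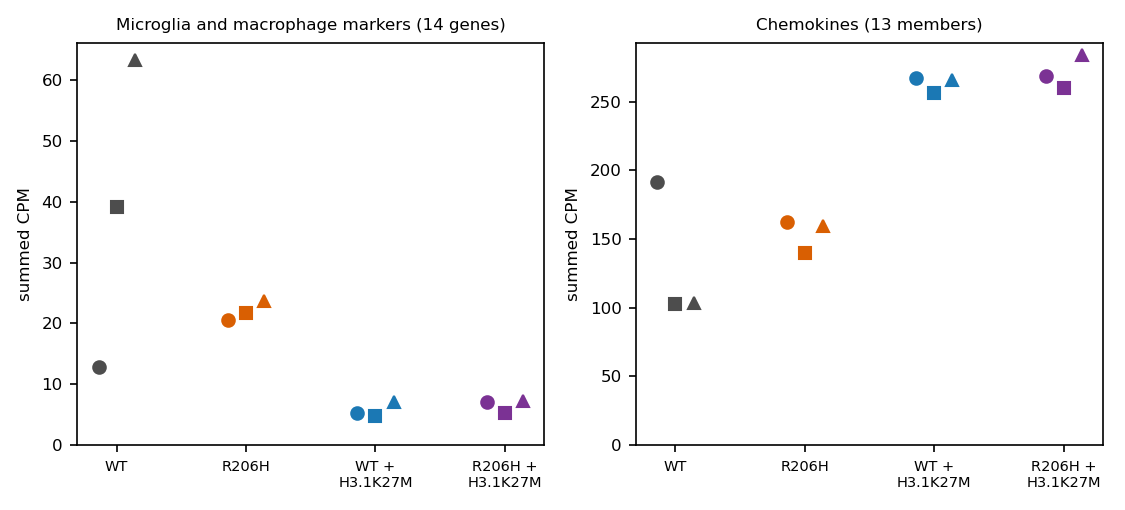
Summed CPM (y axes, linear and starting at 0) of 14 microglia and macrophage markers (left) and of the 13 chemokines (right) in each sample, by group, with circle, square and triangle for replicates 1, 2 and 3. The markers are at 4.78 to 7.25 CPM in the samples with H3.1K27M and at 12.8 to 63.2 CPM in those without, while the chemokine sum, most of which is *Cx3cl1*, is higher with H3.1K27M.

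Leaving out *ACVR1* WT replicate 1, in the presence of *ACVR1* WT 14 members rose with H3.1K27M (beside 26.9% of genes) and 4 fell (beside 25.6%; 52.6% either way). The members that fell were *Tnfrsf1b* (log2 fold change -3.55), *Tnfaip2* (-0.97), *Bcl3* (-0.92) and *Vcam1* (-0.52). *Cxcl10* (5.65), *Icam1* (4.32), *Cxcl1* (4.26), *Ccl2* (3.17), *Cxcl5* (3.15) and *Cxcl14* (2.78) led those that rose. Then came *Cd40* (2.05), *Birc3* (1.66), *Cx3cl1* (1.05), *Nfkbiz* (1.03), *Tnfrsf1a* (0.79), *Nfkb2* (0.70), *Csf1* (0.62) and *Relb* (0.39). *Cx3cl1* and *Relb* also passed, as higher, with DESeq2 and in the fit of all 12 samples, *Tnfrsf1b* passed as lower in both, and *Tnfaip3* as higher in the latter. The count with *ACVR1* WT depended on other samples too: 7 members were called without *ACVR1* WT and H3.1K27M replicate 1, 8 without its replicate 2 and 5 without its replicate 3. Over all genes, these fits called 1189 of 15351, 1050 of 15386 and 1037 of 15311, against 3533 of 15385 with no sample left out. A minimum fold aside, *Cxcl5*, *Icam1* and *Csf1* were tested and passed in all 12 alternatives. *Cxcl10* passed in the 11 in which it was tested and *Cxcl1* in 9, since their low counts without H3.1K27M kept them out of the filter of 10 counts in every sample and, for *Cxcl1*, 2 fits with a sample left out. The rest of the 12 calls with *ACVR1* WT (*Cxcl14*, *Ccl2*, *Nfkb2*, *Nfkbiz*, *Birc3*, *Cd40* and *Tnfrsf1a*) did not pass in every alternative in which they were tested. With *ACVR1* R206H, 12 of the 19 called members were tested and passed in all 12, and *Cxcl1*, *Cxcl10*, *Ccl2* and *Cd40* passed in the 11 in which they were tested, which leaves *Cxcl16*, *Vcam1* and *Nfkbia*. *Acvr1* counts also differed with H3.1K27M, by 2.20 (SE 0.33, edgeR adjusted p = 7.4e-03) and 3.23 (SE 0.21, adjusted p = 1.3e-07) on the log2 scale, and the part of the *ACVR1* vector level in these results was not tested.

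In the presence of H3.1K27M, R206H against WT changed few members. Of 29 tested, 4 rose, beside 11.4% of 15672 genes, and 2 fell, beside 8.95% (20.3% of genes either way), so the shares were close to those of all genes. *Cxcl5*, *Bcl3*, *Nfkbia* and *Csf1* rose, and *Vcam1* and *Cxcl14* fell. For *Cxcl5*, whose values in these groups are given above, the log2 fold change was 1.40 (SE 0.11, edgeR adjusted p = 3.5e-06), a fold of 2.64 (95% interval 2.23 to 3.13). *Nfkbia* (ENSMUSG00000021025) was at 44.5, 40.2 and 38.1 CPM with *ACVR1* WT and H3.1K27M and at 61.9, 52.8 and 62.9 CPM with *ACVR1* R206H and H3.1K27M. It rose by 0.56 on the log2 scale (SE 0.07, adjusted p = 1.1e-04), without overlap.

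*Vcam1* fell in the same comparison, from 213, 221 and 205 CPM to 149, 149.6 and 144 CPM, by 0.50 on the log2 scale (SE 0.04, edgeR adjusted p = 4.9e-06). *Csf1* rose from 100.5, 107 and 107 CPM to 129, 119.8 and 128 CPM, by 0.29 (SE 0.04, adjusted p = 4.4e-04). *Bcl3* was at 0.539, 0.716 and 0.400 CPM with *ACVR1* WT and H3.1K27M and at 2.14, 1.03 and 1.31 CPM with *ACVR1* R206H and H3.1K27M (log2 fold change 1.46, SE 0.33, adjusted p = 8.3e-03). *Cxcl14* fell by 0.22 (SE 0.06, adjusted p = 0.023), the smallest of these changes. With all 12 samples in one fit, only *Cxcl5* and *Nfkbia* of the 6 passed, beside 2.85% of genes, and these also passed in the other alternatives, a minimum fold aside.

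The genes with the largest H3.1K27M differences, other than *Cxcl5*, did not differ measurably between R206H and WT once H3.1K27M was present. The log2 fold change was 0.01 (95% interval -0.13 to 0.15) for *Icam1*, -0.14 (-0.36 to 0.08) for *Cxcl10* and 0.45 (-0.07 to 0.96) for *Cxcl1*. *Rela* (0.00, -0.11 to 0.11), *Nfkb1* (0.02, -0.11 to 0.14), *Nfkb2* (-0.05, -0.18 to 0.07) and *Relb* (-0.03, -0.17 to 0.11) had narrow intervals around 0. *Traf1* was higher in every R206H sample (log2 fold change 0.85, SE 0.31) with an adjusted p of 0.077. Beside these values, *Acvr1* was higher by 1.91 on the log2 scale with R206H (SE 0.28, edgeR adjusted p = 4.5e-04), and cell type markers moved too. All 6 oligodendrocyte lineage markers fell, 5 of 9 neural progenitor markers rose and 1 fell, 3 of 6 astrocyte markers rose and 1 fell, 2 of 5 neuron markers rose, 3 of 7 tested pericyte and fibroblast markers rose, and so did 1 of 4 endothelial and 1 of 2 microglia markers tested, beside 11.4% of genes higher and 8.95% lower. Their part in these results was not tested.

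**Figure D5:**
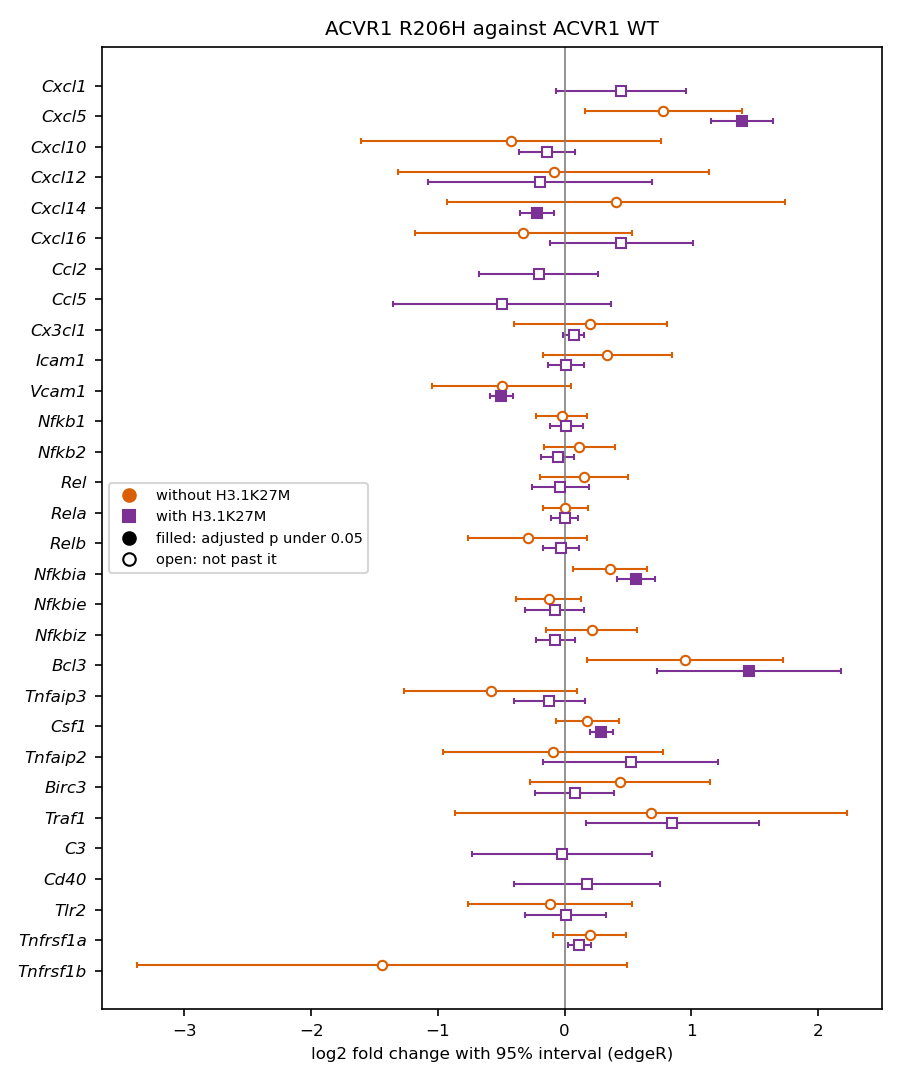
Log2 fold change (x axis) of each tested member with *ACVR1* R206H against *ACVR1* WT, with its 95% interval, without H3.1K27M (circles) and with it (squares); filled symbols have an adjusted p under 0.05. The 6 filled symbols are all in the comparison with H3.1K27M, and *Cxcl5*, *Nfkbia* and *Bcl3* are positive in both.

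Without H3.1K27M, no member passed the test between *ACVR1* R206H and *ACVR1* WT. EdgeR called 0 of 25 tested, and DESeq2 also 0, beside 0% of 15066 genes with edgeR and 0.173% with DESeq2. At an unadjusted p under 0.05, edgeR had 3 members and 534 genes. The 3 were *Cxcl5* (log2 fold change 0.78, SE 0.26), *Bcl3* (0.95, SE 0.32) and *Nfkbia* (0.36, SE 0.12), each with an adjusted p of 0.94. For each of them all 3 *ACVR1* R206H samples were higher than all 3 *ACVR1* WT samples. *Nfkbia* was at 43.7, 38.8 and 32.1 CPM with *ACVR1* WT and at 50.5, 47.7 and 49.5 CPM with *ACVR1* R206H, and *Bcl3* was at 1.13, 0.929 and 1.12 CPM and at 1.81, 1.40 and 2.96 CPM.

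This comparison depended on *ACVR1* WT replicate 1. Without it, 4 members rose, beside 12.1% of 15087 genes, and 2 fell, beside 11% (23.1% either way). *Cxcl14* rose by 1.22 (SE 0.31, edgeR adjusted p = 0.026), *Cx3cl1* by 0.56 (SE 0.08, adjusted p = 3.9e-03), *Nfkbia* by 0.47 (SE 0.09, adjusted p = 0.010) and *Nfkbiz* by 0.38 (SE 0.10, adjusted p = 0.032) on the log2 scale. *Vcam1* fell by 0.73 (SE 0.07, adjusted p = 1.9e-03) and *Tnfrsf1b* by 1.97 (SE 0.31, adjusted p = 5.2e-03). These 6 members were picked by calls made only without that sample, a selection that favors members in which it lies toward the *ACVR1* R206H group. In all 6 the sample left out was nearer to the *ACVR1* R206H samples than to the rest of its own group, from which no conclusion is drawn. The summed level of 6 astrocyte markers was 3191 CPM in that sample, 8222 and 12671 CPM in the rest of the *ACVR1* WT group, and 5332 to 6309 CPM with *ACVR1* R206H. In the same order, the 14 microglia and macrophage markers summed to 12.8 CPM, to 39.1 and 63.2 CPM, and to 20.6 to 23.6 CPM, and 5 neuron markers to 26.4 CPM, to 121 and 156 CPM, and to 36.4 to 42.2 CPM. With that sample left out, 7 of 12 microglia, 5 of 6 astrocyte, 3 of 6 oligodendrocyte lineage and 2 of 4 neuron markers tested were lower with R206H, beside 11% of genes, and their part in the members' calls was not tested.

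Whether the R206H response differed with H3.1K27M was tested by the interaction over the 12 samples. No member passed (0 of 29 with edgeR and 0 with DESeq2), beside 0.0712% of 15445 genes with edgeR and 0.628% with DESeq2. *Cxcl5* alone had an unadjusted p under 0.05, with an interaction of 0.63 on the log2 scale (SE 0.27, edgeR adjusted p = 0.64). The interaction was 0.30 (95% interval -0.67 to 1.26) for *Cxcl10*, -0.32 (-0.74 to 0.10) for *Icam1*, 0.21 (-0.12 to 0.54) for *Nfkbia* and 0.00 (-0.55 to 0.55) for *Vcam1*. Without *ACVR1* WT replicate 1, 5 members passed, beside 26.6% of genes. *Vcam1* was positive (0.24), and *Cxcl14* (-1.43), *Cx3cl1* (-0.48), *Nfkbiz* (-0.44) and *Nfkb2* (-0.27) were negative. Cell type markers passed in that fit too: 5 of 9 neural progenitor markers were positive and 1 negative, and 4 of 6 astrocyte markers positive. Of the oligodendrocyte lineage 2 of 6 were positive and 2 negative, and 2 of 5 neuron, 2 of 10 microglia and 1 of 6 pericyte and fibroblast markers were positive. Their part in the members' calls was not tested.

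Other genes of the pathway were counted in lists. Of 27 genes of the IKK complex and its adaptors, all tested, 2 rose and 2 fell with H3.1K27M in the presence of *ACVR1* WT (3 and 8 without *ACVR1* WT replicate 1), and 4 rose and 5 fell in the presence of *ACVR1* R206H. These shares were below those of all genes called, 23%, 52.6% and 56.5%. *Map3k8*, a kinase upstream of ERK that NF-kB1 protein holds in check, rose (1.45, SE 0.33, adjusted p = 0.025, and 0.59, SE 0.16, adjusted p = 7.6e-03, edgeR), as did *Traf3*, a brake on the noncanonical pathway (0.88, SE 0.06, adjusted p = 1.1e-03, and 1.16, SE 0.05, adjusted p = 4.5e-09). *Traf3* was at 78.7 to 86.6 CPM with *ACVR1* WT, 83.5 to 92.2 CPM with *ACVR1* R206H, 151 to 158 CPM with *ACVR1* WT and H3.1K27M, and 187 to 203 CPM with both mutations. The IKK kinase and scaffold genes *Chuk*, *Ikbkb* and *Ikbkg* were not among those that passed.

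Receptors that feed the pathway mostly rose. Of 19 inflammatory receptors, 10 of 14 tested rose with H3.1K27M in the presence of *ACVR1* WT, with and without its replicate 1, and 13 of 14 rose and 1 fell in the presence of *ACVR1* R206H. Beside these stand 12.6%, 26.9% and 29.1% of genes higher. *Cd14*, a coreceptor for lipopolysaccharide, *Tlr4*, its signaling partner, and *Tlr6* had the largest changes with *ACVR1* WT, at 2.98 (SE 0.19, edgeR adjusted p = 9.4e-04), 2.33 (SE 0.24, adjusted p = 2.5e-03) and 1.81 (SE 0.26, adjusted p = 6.5e-03) on the log2 scale. *Cd14* was at 1.13 to 1.74 CPM with *ACVR1* WT and at 11.4 to 12.9 CPM with H3.1K27M added.

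Among 29 other NF-kB targets, 11 were tested, of which 5 rose with *ACVR1* WT (8 rose and 2 fell without its replicate 1) and 7 with *ACVR1* R206H when H3.1K27M was present. The shares of all genes higher were 12.6% with *ACVR1* WT, 26.9% without its replicate 1 (25.6% lower) and 29.1% with *ACVR1* R206H. *Ier3*, an early-response survival gene, rose by 2.89 (SE 0.30, edgeR adjusted p = 2.6e-03) and 2.97 (SE 0.09, adjusted p = 8.3e-10), and *Lif*, an IL-6 family cytokine, by 2.42 (SE 0.26, adjusted p = 3.0e-03) and 2.52 (SE 0.15, adjusted p = 6.8e-08). *Il6* and *Il1b* were at 0.0485 CPM or less in every sample. Of 13 further inhibitors, 12 were tested, and 3 rose and 2 fell with *ACVR1* WT (3 and 3 without its replicate 1) and 5 rose and 2 fell with *ACVR1* R206H, beside 23%, 52.6% and 56.5% of genes called either way. *Nlrc5*, best known as the activator of MHC class I genes, led those that rose (2.40, SE 0.15, adjusted p = 9.3e-04, and 1.74, SE 0.09, adjusted p = 2.6e-08).

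Receptors for the chemokines were mostly too low to test, at 5 of 17 with *ACVR1* WT, of which 1 rose and 2 fell (1 and 4 without its replicate 1), and at 4 of 17 with *ACVR1* R206H, of which 2 rose and 2 fell, beside the same shares of genes called. *Cxcr4*, the receptor of the *Cxcl12* product, fell with H3.1K27M by 1.76 (SE 0.30, edgeR adjusted p = 0.011) and by 0.97 (SE 0.11, adjusted p = 1.3e-05) on the log2 scale, and *Cx3cr1*, the microglial receptor of the *Cx3cl1* product, fell by 4.66 (SE 0.85, adjusted p = 0.013) in the presence of *ACVR1* WT. *Ackr4*, a decoy receptor for other CC chemokines, rose by 3.38 (SE 0.29, adjusted p = 1.7e-03) and 3.73 (SE 0.25, adjusted p = 1.7e-07). Between R206H and WT in the presence of H3.1K27M, 4 of 27 IKK complex and adaptor genes, 4 of 14 inflammatory receptors and 6 of 11 other targets rose and none of them fell, 1 of 4 chemokine receptors rose, and 0 of 12 further inhibitors passed with edgeR (1 at an unadjusted p under 0.05), beside 11.4% of genes higher and 8.95% lower. *Il1r1*, the interleukin-1 receptor, rose by 1.04 there (SE 0.11, adjusted p = 3.2e-05), and *Ptx3*, a pentraxin of innate immunity, by 1.91 (SE 0.31, adjusted p = 9.2e-04).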

How the data were processed

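The deposited files held raw counts of read pairs per Ensembl gene, 1 file per sample, which the authors had made by aligning paired-end reads to mm10 with STAR (2.6.0b-1 in the submitters' processing notes) and counting them with HTSeq in union mode, without strand, at a minimum mapping quality of 10. Reads that overlapped several genes or aligned to several places were not counted, and reads from antisense transcripts cannot be told apart. Here, genes whose normalized counts averaged 10 or more over the samples of a comparison were tested with edgeR 4.0.16 (R 4.3.3; TMM, quasi-likelihood F test, Benjamini-Hochberg over all tested genes, threshold 0.05). Each comparison used its own 6 samples, and the interaction all 12. DESeq2 1.42.0, which the authors used, was an alternative, beside other scaling, filters, a replicate block, a joint fit, a fold limit and leaving out each sample. Fits were tested on simulated counts. Intervals are 95%, and those of count ratios cover counting error only. Exon lengths and positions were from GENCODE M21. All 36 members are named, and other lists are given by counts with at most 3 genes named per direction and comparison. The members and lists were chosen with earlier results of these data known. The labels do not say which litter or culture each sample came from, so p-values measure the spread between these samples only.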

Additional observations from a re-analysis of the deposited data

How the results depend on the processing

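No called member changed sign: of 471 refitted changes of called members, 421 kept their direction and side of the threshold and 50 no longer passed it. Of 1440 refitted changes of members that were not called, 94 had the opposite sign, none of them called. The number of members called was 0 for R206H against WT without H3.1K27M, and leaving out 1 sample at a time gave 0 to 6, the 6 without *ACVR1* WT replicate 1 (3485 genes). With H3.1K27M it was 6, and 5 to 7 with 1 sample left out, but 2 with a log2 fold change of at least 1 (307 genes against 3185) and 2 with all 12 samples in one fit (440 genes). For H3.1K27M with *ACVR1* WT it was 12, ranging from 5 to 18 with 1 sample left out (1037 to 8115 genes against 3533), with 2023 genes under the replicate block, 1404 with the fold limit and 6335 in the joint fit. For H3.1K27M with *ACVR1* R206H it was 19, ranging from 18 to 20 with 1 sample left out, and 9 with the fold limit (1781 genes against 8745). It was 15 with at least 10 counts in every sample (8182 genes), 16 in the joint fit (5963 genes) and 22 without a filter (9449 genes). The interaction had 0 members, and 0 to 5 with 1 sample left out, the 5 without *ACVR1* WT replicate 1 (4112 genes against 11), with 97 genes under DESeq2, 18 without a filter, 2 under the block and 6 with the fold limit. The cause of these shifts was not tested, other than that the fold limit removes smaller changes by its construction.

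Samples with the same number did not deviate together in every pair (correlations of -0.115 to 0.325 without H3.1K27M and of -0.0302 to 0.0616 in the other comparisons), so the numbers were not taken as pairs. With the replicate block, 0, 6, 11 and 19 members were called in the 4 comparisons and 0 in the interaction. Over all genes these fits called 0 of 15066, 3335 of 15672, 2023 of 15385, 8606 of 15482 and 2 of 15445. *Nfkb2* with *ACVR1* WT was the member call that was lost. *Tnf*, *Cxcl2*, *Cxcl9*, *Ccl7*, *Ccl20* and *Lcn2* were under the count minimum in the 4 comparisons. Without that minimum, edgeR called *Ccl20* higher with H3.1K27M in the presence of *ACVR1* R206H (adjusted p = 2.1e-05) and with R206H in the presence of H3.1K27M (log2 fold change 1.99, adjusted p = 0.032), from 25 counts against 0 and 6. The other calls that the minimum kept out or that changed were, with H3.1K27M and *ACVR1* R206H, *Ccl5* higher (28 counts against 1, adjusted p = 6.7e-05) and *Tnfrsf1b* lower (log2 fold change -2.08, adjusted p = 5.0e-03), and, with R206H and H3.1K27M, *Traf1* higher (0.84, adjusted p = 0.026). In the fits that gave these calls, the unadjusted p-values matched a normal distribution of log2 fold change over SE. They thus treat the spread between samples as known, although it came from 3 samples per group, and are too small to rely on.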
